A study of Mus musculus with 6 samples.

Results

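The genes that encode the NF-kB transcription factors and their direct controls were followed in endometriosis-like lesions of mice given niclosamide or vehicle. The set comprised the subunit genes *Nfkb1*, *Nfkb2*, *Rela*, *Relb* and *Rel*, the inhibitor genes *Nfkbia*, *Nfkbib* and *Nfkbie*, *Tnfaip3*, which encodes the ubiquitin-editing brake A20, and *Ikbkb*, which encodes the kinase IKK-beta. These 10 genes were chosen by name, all 10 were found among the 41786 counted gene symbols, and all 10 passed the filter on low counts. In these lesions all 10 genes were expressed. None passed the test for a difference between niclosamide and vehicle, and neither did any of the 17364 genes tested. In scaled counts the vehicle and niclosamide values overlapped in each of the 10, while the groups did not overlap in 12.3% of all genes. On a second scale given further on (TPM), which scales the libraries otherwise, the *Ikbkb* groups did not overlap. Niclosamide was the lower there, as in 13.1% of all genes. The largest log2 fold changes were those of *Tnfaip3*, *Nfkbie* and *Nfkbib*, at 0.35 ± 0.29 (standard error), 0.30 ± 0.20 and 0.22 ± 0.19. The remaining inhibitor gene, *Nfkbia*, went the other way at -0.10 ± 0.19, and *Rela* had the lowest, of -0.15 ± 0.20. In each of the 10 genes the niclosamide libraries differed among themselves by a larger fold than the group means differed, and niclosamide 3 was the lowest of all 6 libraries in 8 of the 10 genes.

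NF-kB factors are dimers that wait in the cytoplasm, bound by inhibitor proteins of the IkB family. In the canonical pathway, receptors for TNF, IL-1 or microbial products activate the IKK complex, which marks IkB proteins for destruction and frees dimers such as p50 with RelA. In the non-canonical pathway, the precursor made from *Nfkb2* is cut to p52, which acts with RelB. Freed NF-kB also switches on genes of its own inhibitors, such as *Nfkbia*, *Nfkbie* and *Tnfaip3*, so that the signal limits itself. In endometriosis NF-kB is studied as a driver of cytokine production in lesions, and niclosamide, an oral anthelmintic, is reported to inhibit it. Transcript counts measure how much RNA of these genes is present and not whether the proteins are active.

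Lesions were made in female C57BL/6 mice. Uterine tissue from B6-GFP positive donors, 6 weeks old, was stitched onto the peritoneum of wild-type recipients, 8 weeks old and at the same stage of the cycle, and daily dosing started 3 days later. Recipients received vehicle (n = 3 libraries) or niclosamide at 200 mg per kg of body weight per day (n = 3 libraries) for 3 weeks, and lesions were taken in diestrus and freed of recipient tissue. All lesions therefore shared the B6-GFP positive donor genotype and the wild-type host, and can hold cells of both. Vehicle 1 was RNA pooled from 4 mice and each other library came from 1 mouse, so the vehicle group held 1 pooled and 2 single-animal values.

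The libraries held 27797121 to 34797000 counted reads, and 17364 genes passed the filter on low counts. Values below are CPM (counts scaled to a common library total) after TMM scaling, which sets libraries to a common level over most genes, and values of a group are listed in the order of replicates 1, 2 and 3. Differences are log2 fold changes, niclosamide over vehicle, with their standard error (SE), from the quasi-likelihood test of edgeR, with p adjusted by Benjamini-Hochberg over all genes tested and a threshold of 0.05. That test called 0 genes in the whole table (0%), limma-voom called 0, and DESeq2 called 178 (1.01% of the genes it tested). At an unadjusted edgeR p under 0.05 there were 1202 genes (6.92%), and in 2131 genes (12.3%) the groups did not overlap. Markers of recipient and immune tissue differed widely between libraries. The summed CPM of 9 skeletal muscle markers ran from 795 in niclosamide 2 to 33200 in niclosamide 1, against 4760 to 11500 with vehicle. The summed CPM of 9 uterine epithelium markers ran from 392 to 2450 with niclosamide and from 847 to 2000 with vehicle, and all 10 stroma markers, which include the uterine position genes *Hoxa10* and *Hoxa11*, were counted in every library. In tissue RNA, fewer cells of a type and less RNA per cell cannot be told apart.

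The NF-kB genes moved together from library to library. Relative to each gene's own mean over the 6 libraries, the 10 genes averaged 0.15, -0.20 and -0.05 on the log2 scale in the vehicle libraries, and 0.19, 0.22 and -0.31 in the niclosamide libraries. The same mean over all genes tested ran from -0.06 to 0.03. TMM scaling holds that mean near 0, so it does not show how far other sets of 10 genes move. Thus vehicle 1, niclosamide 1 and niclosamide 2 were high and vehicle 2 and niclosamide 3 were low. All 10 genes were above their own mean in niclosamide 2 and 0 were in niclosamide 3. Within the vehicle group, vehicle 1 was the highest library in 9 genes and vehicle 2 the lowest in 8, and within the niclosamide group niclosamide 3 was the lowest in all 10. Over the 6 libraries Pearson's r of log2 CPM was above 0 in all 45 pairs of these genes, with a median of 0.74, from 0.31 for *Rela* with *Rel* to 0.96 for *Nfkb2* with *Relb* and for *Relb* with *Tnfaip3*. These r values describe 6 libraries that share their depth and their tissue make-up with every gene in the table. The r over all pairs of tested genes was not computed. Whether these 10 genes moved together more than other genes was not tested.

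**Figure D1:**
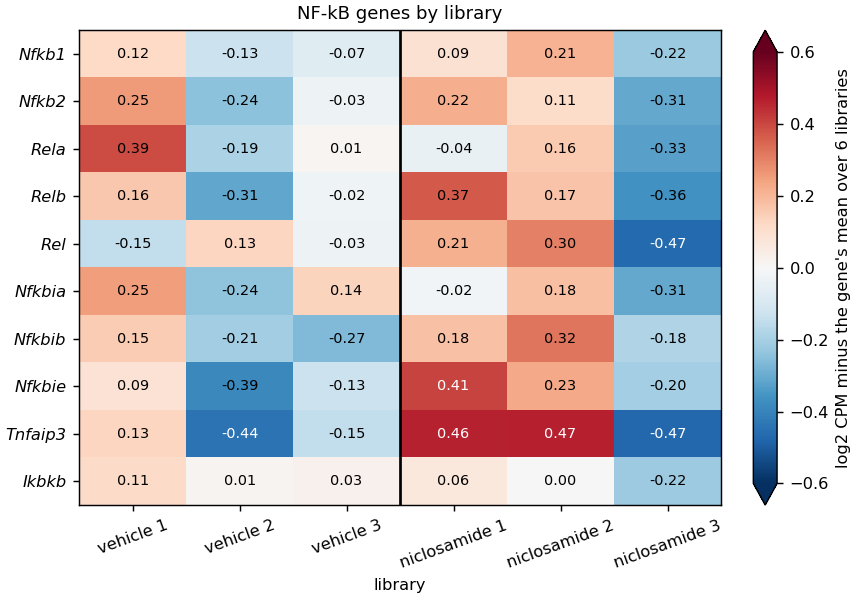
Log2 CPM of each NF-kB gene (rows) in each library (columns), minus that gene's mean over the 6 libraries; red is above and blue below the mean, and the numbers are the plotted values. The niclosamide 3 column is blue in all 10 genes, and the vehicle 1 and niclosamide 2 columns are mostly red.

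Because these genes varied together and several are known to be switched on by NF-kB itself, their promoters were read for the NF-kB consensus (the kB site of 10 bases, on either strand). RefSeq promoter windows of GRCm38.p6, from 250 bases before to 50 bases after a transcription start, were matched for 7 of the 10 genes; *Nfkb1*, *Relb* and *Ikbkb* were not matched. Of the 7, 5 held at least 1 match, namely *Nfkbia*, *Nfkbie*, *Tnfaip3*, *Rel* and *Nfkb2*, while the windows of *Rela* and *Nfkbib* held none. Over all 27018 genes with such windows, 5.14% held a match, and of 32841 windows 4.51% did. The windows below show one match for each of the 5 genes, on the strand of the gene and with 25 bases on either side. Capitals mark the matching bases, and a match is a description of the letters only.
Nfkbia (chr12:55492642-55492701, minus strand, match 29 to 20 bases upstream of the start): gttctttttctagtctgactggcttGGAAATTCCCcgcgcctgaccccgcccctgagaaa
Nfkbie (chr17:45555569-45555628, plus strand, match 106 to 97 bases upstream): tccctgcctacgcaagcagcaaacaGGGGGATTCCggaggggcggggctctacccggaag
Tnfaip3 (chr10:19015388-19015447, minus strand, match 12 to 3 bases upstream): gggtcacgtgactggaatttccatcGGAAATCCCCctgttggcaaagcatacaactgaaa
Rel (chr11:23771026-23771086, minus strand, match 92 to 82 bases upstream): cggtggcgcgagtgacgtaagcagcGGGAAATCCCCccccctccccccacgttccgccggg
Nfkb2 (chr19:46304673-46304733, plus strand, match 39 to 29 bases upstream): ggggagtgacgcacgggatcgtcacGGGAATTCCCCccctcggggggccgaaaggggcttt

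In *Rel* and *Nfkb2* the capitals cover 3 overlapping matches, read on both strands, which is why they run to 11 bases. *Nfkb2* has 3 annotated starts in the table and every one of the 3 windows held a match, whereas the window of the second *Tnfaip3* start held none. The 2 matched genes without a kB match, *Rela* and *Nfkbib*, were below their own mean in niclosamide 3 (-0.33 and -0.18 on the log2 scale). In niclosamide 2 they were above it (0.16 and 0.32), and in niclosamide 1 they differed (-0.04 and 0.18). Whether a kB match goes with the pattern by library was not tested.

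**Figure D2:**
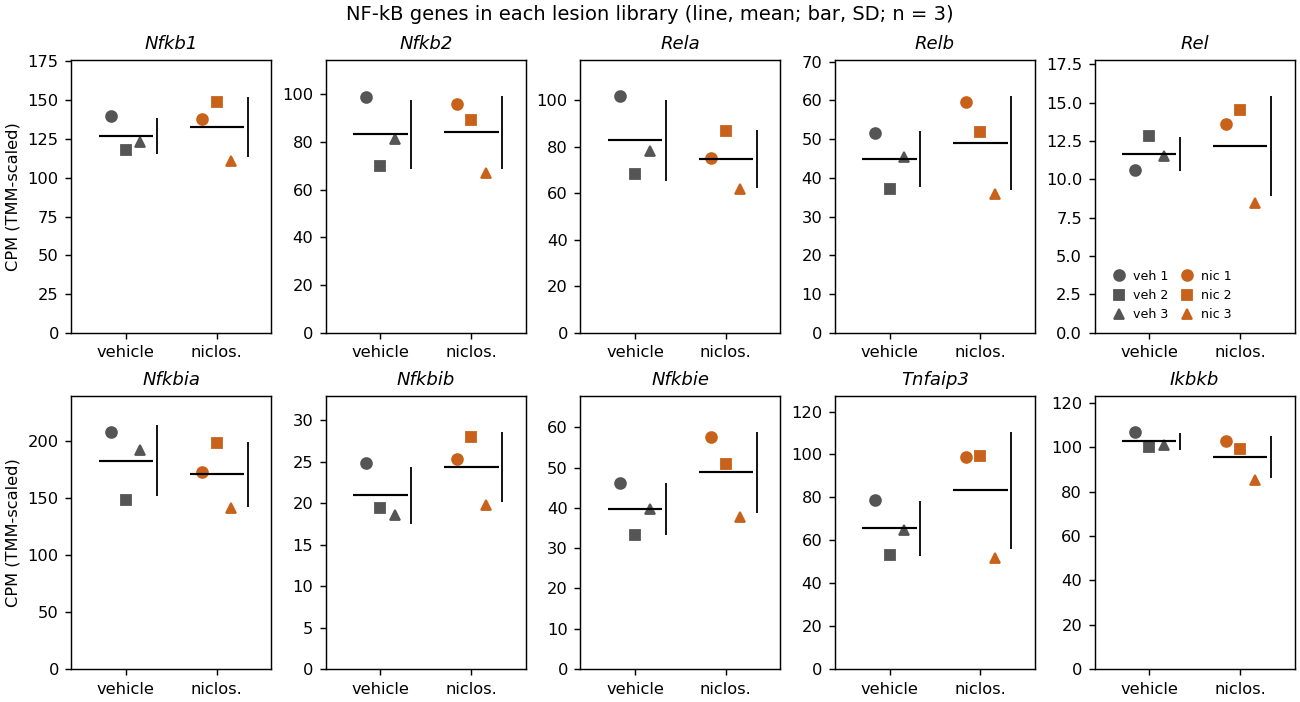
CPM of each NF-kB gene in each library, by group; symbols are libraries (circle, replicate 1; square, replicate 2; triangle, replicate 3), lines are group means and bars are SD (n = 3). The groups overlap in every panel, and niclosamide 3 lies at the bottom of the niclosamide group in every panel.

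*Nfkb1* (chromosome 3, 135584655 to 135691547), which encodes the p105 precursor of the DNA-binding subunit p50, had 140, 118 and 123 CPM with vehicle and 138, 149 and 111 with niclosamide. Both the highest and the lowest value were niclosamide libraries, and the group means were 127 ± 11.7 (SD, n = 3) and 133 ± 19.9. *Rela* (chromosome 19, 5637440 to 5648130), the main activating subunit, had 102, 68.2 and 78.2 CPM with vehicle and 75.3, 86.7 and 61.8 with niclosamide. Vehicle 1, the pooled library, was the highest, and the other 2 vehicle libraries lay inside the niclosamide range. *Rel* (chromosome 11, 23741729 to 23770970), a subunit best known from lymphocytes and myeloid cells, was the scarcest of the set, at 10.6, 12.8 and 11.5 CPM with vehicle and 13.6, 14.5 and 8.46 with niclosamide. It rested on 272 to 468 counts per library. In *Rel* the niclosamide group held both extremes and spanned 1.71-fold, against 1.21-fold for vehicle.

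The non-canonical subunits come next. *Nfkb2* (chromosome 19, 46303612 to 46312400), the source of p52, had 98.6, 69.7 and 81.0 CPM with vehicle and 96.0, 89.2 and 66.8 with niclosamide, so that the highest value was a vehicle library and the lowest a niclosamide library. *Relb* (chromosome 7, 19606217 to 19629438), the partner of p52, had 51.6, 37.2 and 45.4 CPM with vehicle and 59.5, 51.9 and 35.8 with niclosamide. Niclosamide 1 was above every vehicle library and niclosamide 3 was below every one. The group means of *Relb* were 44.7 ± 7.24 and 49.1 ± 12.1 CPM. Exons of *Nfkb2* overlap those of *Psd* and *4833438C02Rik* on the opposite strand over 1525 bases, and those of *Nfkbib* overlap *Gm6537* over 311 bases; the authors counted by strand, and exons of the 10 genes share 0 bases with another gene on their own strand.

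Among the inhibitors, *Nfkbia* (chromosome 12, 55489409 to 55492647) encodes IkB-alpha, the inhibitor that NF-kB re-induces within the canonical loop. It had 208, 148 and 192 CPM with vehicle and 173, 198 and 141 with niclosamide. Vehicle 1 was highest and niclosamide 3 lowest, and the other 4 libraries were interleaved. *Nfkbib* (chromosome 7, 28758251 to 28766639), the gene of IkB-beta, had 24.9, 19.4 and 18.6 CPM with vehicle and 25.4, 28.0 and 19.8 with niclosamide. Here each niclosamide library was above at least 2 vehicle libraries, although vehicle 1 was above niclosamide 3. *Nfkbie* (chromosome 17, 45555667 to 45563169), the gene of IkB-epsilon, had 46.2, 33.2 and 39.8 CPM with vehicle and 57.6, 51.0 and 37.8 with niclosamide. Niclosamide 1 and 2 exceeded all vehicle libraries and niclosamide 3 fell between vehicle 2 and vehicle 3, which gave means of 39.7 ± 6.48 and 48.8 ± 10.1 CPM.

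*Tnfaip3* (chromosome 10, 19000910 to 19015410), the gene of A20, which removes the ubiquitin chains that carry the signal to IKK, spread most of the 10. It had 78.7, 52.9 and 64.9 CPM with vehicle and 99.0, 99.2 and 51.8 with niclosamide. Niclosamide 1 and 2 were above every vehicle library, and niclosamide 3 was below every one, a span of 1.92-fold within 1 treatment group. *Ikbkb* (chromosome 8, 22659205 to 22706585), the gene of the kinase that phosphorylates the IkB proteins, spread least, with 107, 100 and 101 CPM with vehicle and 103, 99.2 and 85.1 with niclosamide. The vehicle libraries lay within 1.07-fold of each other and niclosamide 3 alone stood below them by more than 10 CPM.

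None of the 10 genes passed the test. The log2 fold changes were 0.06 ± 0.16 (SE) for *Nfkb1*, 0.02 ± 0.19 for *Nfkb2*, -0.15 ± 0.20 for *Rela*, 0.13 ± 0.22 for *Relb* and 0.07 ± 0.25 for *Rel*. They were -0.10 ± 0.19 for *Nfkbia*, 0.22 ± 0.19 for *Nfkbib*, 0.30 ± 0.20 for *Nfkbie*, 0.35 ± 0.29 for *Tnfaip3* and -0.10 ± 0.12 for *Ikbkb*. Adjusted p ran from 0.88 for *Nfkbie* to 1.0 for *Nfkb2* (edgeR quasi-likelihood, Benjamini-Hochberg), and DESeq2 gave all 10 an adjusted p of 1.0. The members past the threshold were 0 of 10, as in the table as a whole (0%), and at an unadjusted edgeR p under 0.05 they were also 0 of 10, against 6.92% of all genes. In 0 of the 10 the groups were apart, against 12.3% of all genes. The median log2 fold change of the 10 was 0.06 with 7 above 0, and that of all genes tested was 0.02 with 53.7% above 0. Their median SD within a group was 0.267 log2 units, and that of all genes was 0.295.

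**Figure D3:**
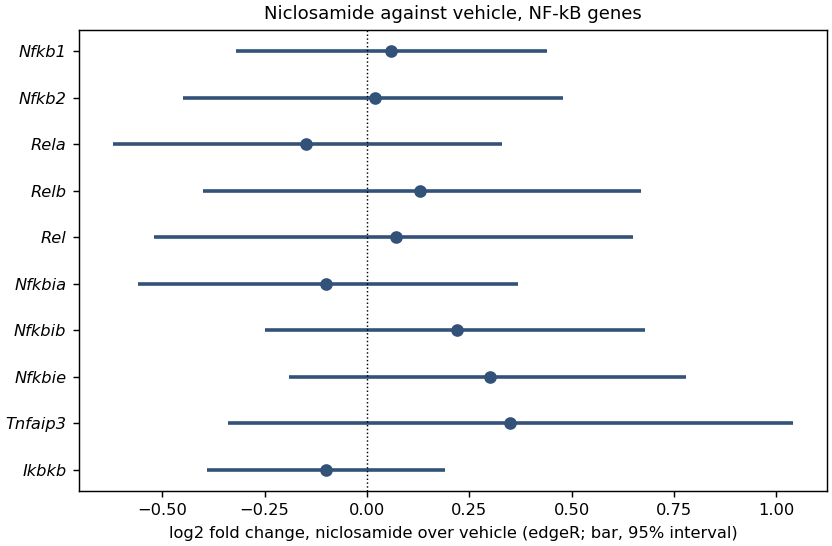
Log2 fold change, niclosamide over vehicle, of each NF-kB gene (point) with its 95% interval (bar) from edgeR's quasi-likelihood fit. All 10 intervals include 0; the interval of *Ikbkb* is the narrowest and that of *Tnfaip3* the widest.

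The intervals show what sizes of change the data leave possible. As fold changes, the 95% interval ran from 0.763 to 1.14 for *Ikbkb*, from 0.65 to 1.25 for *Rela*, from 0.804 to 1.35 for *Nfkb1* and from 0.678 to 1.29 for *Nfkbia*. It was wider for *Nfkbie*, at 0.878 to 1.72, and for *Tnfaip3*, at 0.79 to 2.05. Direction depended on single libraries in 6 genes. *Nfkb1* went to -0.05 without niclosamide 2, and *Relb* to -0.03 without niclosamide 1. *Nfkb2* went to -0.10 without vehicle 2 or niclosamide 1 and to -0.04 without niclosamide 2, and *Rel* to -0.02 without niclosamide 1 and -0.09 without niclosamide 2. *Rela* went to 0.03 without vehicle 1, and *Nfkbia* to 0.005 without vehicle 1 and 0.03 without niclosamide 3. *Nfkbib*, *Nfkbie*, *Tnfaip3* and *Ikbkb* kept their direction with each library left out, but not their size. *Nfkbib* had 0.09 in place of 0.22 and *Tnfaip3* 0.19 in place of 0.35 without niclosamide 2, *Nfkbie* was 0.16 without niclosamide 1, and *Ikbkb* was -0.01 without niclosamide 3. *Nfkbib* was 0.36 without vehicle 1. Without niclosamide 3, *Tnfaip3* had a log2 fold change of 0.61 ± 0.19 and *Nfkbie* one of 0.46 ± 0.18, with adjusted p of 0.35 and 0.45 (edgeR quasi-likelihood, Benjamini-Hochberg), the lowest of all alternatives run, which reached 1.0 for both; these 2 then had an unadjusted p under 0.05, as did 10.8% of all genes.

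A ratio of 2 genes within a library cancels whatever raises or lowers both together, so the 45 ratios among the 10 genes were compared as well, after the shared pattern had been seen and with no test. In 11 of the 45 ratios (24.4%) the groups did not overlap, against 12.6% of all pairs of tested genes. The ratios share genes and are not independent of each other. A ratio of 2 genes that vary together also spreads less within a group, so all gene pairs are not a like background. *Nfkbie* took part in 6 of the 11, and in each of the 6 it was higher with niclosamide relative to its partner. Its log2 fold change, 0.30, was above that of each of these partners, so a ratio that was apart could only lie in this direction. The 6 directions are therefore not separate results. The ratio of *Rela* to *Nfkbie* was 2.2, 2.05 and 1.97 with vehicle and 1.31, 1.7 and 1.64 with niclosamide. The ratio of *Nfkb2* to *Nfkbie* was 2.14, 2.10 and 2.04 with vehicle and 1.67, 1.75 and 1.77 with niclosamide, with each group held within a narrow band. The ratio of *Nfkbia* to *Nfkbie* was 4.50, 4.46 and 4.83 with vehicle and 3.00, 3.88 and 3.74 with niclosamide.

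The other partners of *Nfkbie* whose ratio was apart were *Nfkb1*, *Relb* and *Ikbkb*. *Nfkbib*, the other IkB gene with a positive fold change, was higher relative to *Nfkb1*, *Rela* and *Nfkbia*, and the ratio of *Rela* to *Nfkbib* was 4.08, 3.52 and 4.2 with vehicle and 2.97, 3.09 and 3.13 with niclosamide. *Rela* was also lower relative to *Tnfaip3*, at 1.29, 1.29 and 1.2 against 0.761, 0.874 and 1.19, where niclosamide 3 all but met vehicle 3. The remaining ratio was that of *Relb* to *Nfkbia*, which was higher with niclosamide. Leaving out 1 library cannot undo a separation, so the count could only rise, and it was 13 to 24 of 45. Read against all gene pairs, the share was 53.3% beside 27.9% without niclosamide 3 and 40.0% beside 21.1% without vehicle 1. Without niclosamide 2 both were 28.9%, so the members' share was then no higher than that of other gene pairs.

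**Figure D4:**
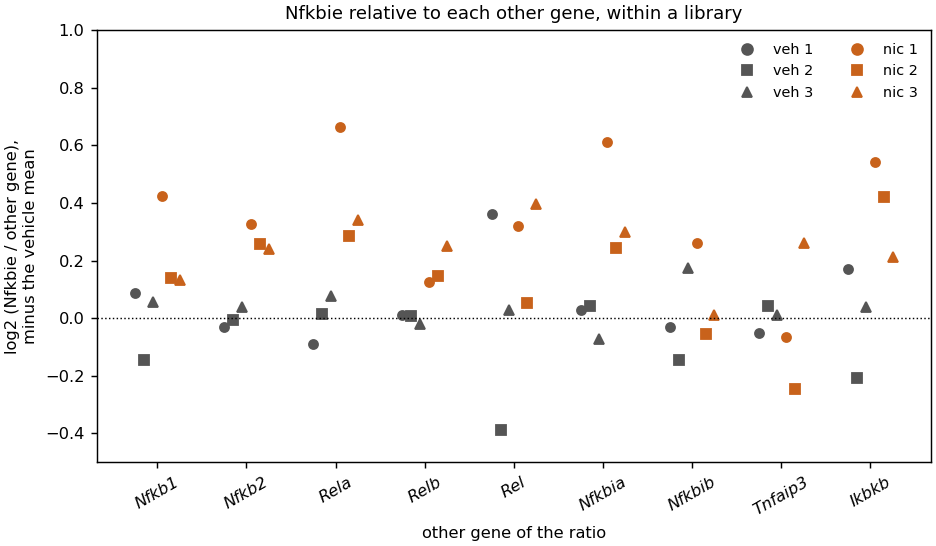
Log2 ratio of *Nfkbie* to each of the other 9 NF-kB genes within a library, minus the vehicle mean of that ratio; symbols are libraries. The niclosamide libraries lie above all vehicle libraries for *Nfkb1*, *Nfkb2*, *Rela*, *Relb*, *Nfkbia* and *Ikbkb*, and overlap them for *Rel*, *Nfkbib* and *Tnfaip3*.

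Levels of different genes were compared as TPM, a share of all transcripts in which counts are first divided by exon length. *Nfkbia* was by far the most abundant, at 287 ± 29.5 TPM with vehicle and 242 ± 28.4 with niclosamide (SD, n = 3), above 96.8% of tested genes and without overlap with the next gene in any library. *Nfkb1* (76.8 ± 2.12 and 71.7 ± 6.78 TPM) and *Rela* (70.3 ± 9.20 and 57.2 ± 6.79) followed, and *Nfkb1* was above *Rela* in 5 of 6 libraries, though their ranges overlapped. *Ikbkb*, *Nfkbie*, *Nfkb2* and *Tnfaip3* came next with overall means of 51.5, 42.0, 41.7 and 36.1 TPM, and neighbours in this run overlapped, *Nfkbie* exceeding *Nfkb2* in only 3 of 6 libraries. *Relb* and *Nfkbib* had 28.9 and 25.2 TPM, with overlapping ranges although *Relb* was the higher in each of the 6 libraries. *Rel* was last at 10.9 TPM, below *Nfkbib* with no overlap.

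Of the summed TPM of the 5 subunits, *Nfkb1* made up 33.3% ± 1.74 with vehicle and 34.6% ± 1.31 with niclosamide, and *Nfkb2* 18.9% ± 0.674 and 19.1% ± 1.07. *Relb* held 12.6% ± 0.621 and 13.7% ± 1.59, and *Rel* 4.95% ± 1.14 and 5.0% ± 0.546. For *Rela* the shares were 32.5%, 28.7% and 29.8% with vehicle and 25.7%, 28.6% and 28.3% with niclosamide. The *Rela* groups were thus apart, but only by the small distance from vehicle 2 to niclosamide 2. A background for such shares was not computed, and ratios of 2 genes were apart in 12.6% of all pairs of tested genes. The make-up of the subunit transcripts was otherwise overlapping between the groups.

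**Figure D5:**
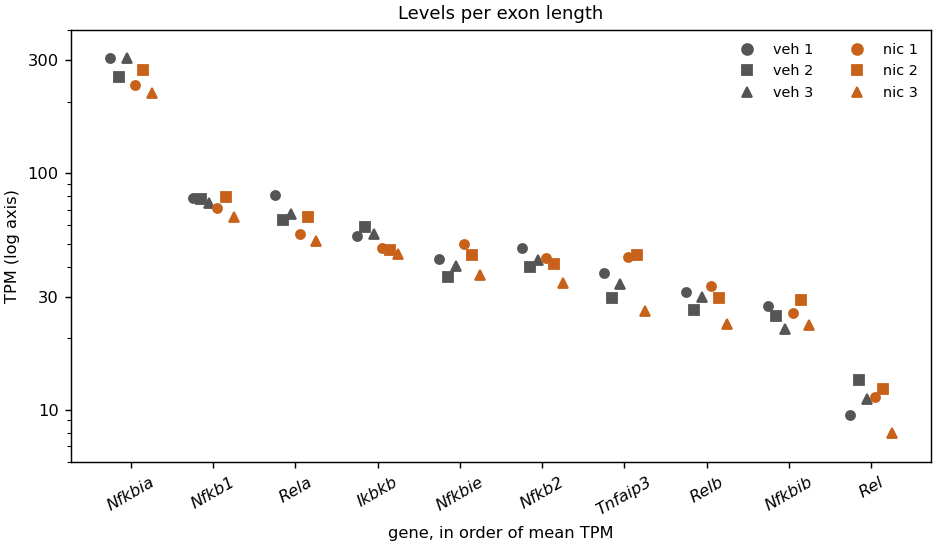
TPM of each NF-kB gene in each library on a log axis, with genes ordered by mean TPM; symbols are libraries. *Nfkbia* stands above all other genes and *Rel* below, and the genes between them overlap with their neighbours.

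TPM carries no TMM factor, and on that scale the median of all tested genes itself moved by -0.13 log2 units with niclosamide. The log2 ratio of mean TPM was -0.10 for *Nfkb1*, -0.14 for *Nfkb2*, -0.03 for *Relb* and -0.11 for *Rel*, so these 4 turned from positive to negative with the scale. *Ikbkb* had 54.1, 59.0 and 55.0 TPM with vehicle and 48.3, 47.2 and 45.2 with niclosamide, without overlap, as did 13.1% of all genes in this direction, and its ratio was -0.26. In the other direction 0 of the 10 genes were apart in TPM, against 2.56% of all genes. *Nfkbib*, *Nfkbie* and *Tnfaip3* stayed positive on both scales, at 0.06, 0.14 and 0.19 in TPM.

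The rest of the pathway was read in the same way. Of 95 further genes in 7 lists, 0 passed the threshold with edgeR in either direction, while 8 higher and 2 lower had an unadjusted p under 0.05 (all genes, 3.37% higher and 3.55% lower), and DESeq2 called 2, both lower. The groups were apart in 7 genes upward and 3 downward, against 5.9% and 6.37% of all genes. Among receptors that feed the pathway, *Tlr7*, a sensor of single-stranded RNA, had 26.1, 26.9 and 29.4 CPM with vehicle and 56.4, 38.4 and 30.5 with niclosamide. *Ltbr*, the lymphotoxin receptor that opens the non-canonical pathway, had 94.4, 81.0 and 82.4 CPM against 63.8, 79.3 and 69.5. Both were apart, in opposite directions, with log2 fold changes of 0.60 ± 0.23 and -0.28 ± 0.13, and *Tlr7* had 0.32 without niclosamide 1. *Cd40*, the co-stimulatory receptor of antigen-presenting cells, overlapped (0.31 ± 0.27, and 0.08 without niclosamide 2).

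Of 9 ligands, 6 had a fold change above 0. *Tnfsf11*, the gene of RANKL, had 4.45, 4.12 and 6.32 CPM with vehicle and 11.2, 8.81 and 6.25 with niclosamide, overlapping through niclosamide 3. *Il1b*, the gene of interleukin-1 beta, had 144, 50.3 and 104 CPM with vehicle and 49.6, 67.8 and 31.5 with niclosamide (log2 fold change -1.0 ± 0.44), and -0.64 without vehicle 1. Its vehicle values alone spanned 2.86-fold. *Lta*, the gene of lymphotoxin alpha, stayed below 6 CPM in each library, with 0.69 ± 0.36, and 0.44 without niclosamide 1.

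Between receptor and kinase, 13 of 19 adaptor and ligase genes had a fold change above 0. *Malt1*, the paracaspase of antigen receptor signalling, had 48.0, 46.7 and 51.3 CPM with vehicle and 93.2, 69.3 and 52.3 with niclosamide, and *Traf1*, an adaptor of TNF receptors, had 36.3, 34.5 and 40.7 against 71.2, 51.8 and 40.9. In both the groups were apart, but niclosamide 3 stood only just above vehicle 3, and without niclosamide 1 both fold changes were 0.32 instead of 0.56. *Birc2*, a ubiquitin ligase at TNF receptors, had a log2 fold change of 0.33 ± 0.18 with overlapping groups, and 0.20 without vehicle 1.

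Of the 10 other kinases and scaffolds, 9 were above 0. *Ikbkg*, the gene of the IKK scaffold NEMO, had 58.0, 60.2 and 62.3 CPM with vehicle and 76.0, 72.4 and 64.2 with niclosamide, which was apart, with a log2 fold change of 0.24 ± 0.11. *Tbk1* and *Ikbke*, IKK-related kinases of the interferon response, had 0.24 ± 0.15 and 0.34 ± 0.23 with overlapping groups, and *Ikbke* had 0.09 without niclosamide 1. The genes of the 3 nuclear IkB proteins were all below 0, at -0.28 ± 0.32 for *Nfkbiz*, -0.09 ± 0.25 for *Bcl3* and -0.03 ± 0.26 for *Nfkbid*. *Bcl3* went to 0.15 without vehicle 1, and *Nfkbid* to 0.14 without niclosamide 3. *Nfkbiz* held both extremes in the niclosamide group, at 49.4, 102 and 45.8 CPM against 77.7 to 82.6 with vehicle, and its log2 fold change was -0.76 without niclosamide 2 and -0.06 without niclosamide 3.

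Of 11 other brakes, 9 were above 0. *Cyld*, a deubiquitinase that counters the same ubiquitin chains as A20, had 83.0, 93.9 and 96.7 CPM with vehicle and 131, 131 and 104 with niclosamide. Its groups were apart and its log2 fold change was 0.42 ± 0.14 (unadjusted p = 0.024 and adjusted p = 0.65 by edgeR's quasi-likelihood test). *Otulin*, which cleaves linear ubiquitin chains, was also apart, at 0.19 ± 0.12, and *Tank*, an adaptor that restrains TRAF signalling, overlapped at 0.30 ± 0.16, and had 0.18 without niclosamide 1.

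Of 30 textbook target genes 17 lay above 0, 13 lay below and the median was 0.12 on the log2 scale. *Mmp9*, the gene of a matrix-degrading gelatinase, had 107, 70.8 and 67.2 CPM with vehicle and 26.1, 38.6 and 21.1 with niclosamide, and *Ccl20*, a chemokine gene, had 3.79, 1.51 and 8.42 against 0.068, 0.495 and 0.933. Both were apart and lower, with log2 fold changes of -1.51 ± 0.29 and -3.18 ± 0.97. They were the 2 genes that DESeq2 called (adjusted p = 0.0029 and 0.028), while edgeR's quasi-likelihood test gave adjusted p of 0.52 and 0.62, and over the alternatives run adjusted p reached 1.0 for both genes. *Ccl20* had only 2 counts in niclosamide 1. *Cxcl10*, a chemokine gene induced by both interferon and NF-kB, had 88.5, 73.9 and 62.4 CPM against 139, 176 and 82.8, overlapping through niclosamide 3.

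Leukocyte markers varied between libraries beside these values. The summed CPM of 6 general leukocyte markers, among them *Ptprc*, was 1820, 1180 and 1420 with vehicle and 2470, 2150 and 1530 with niclosamide, and that of 10 macrophage markers was 2750, 1560 and 1660 against 3500, 3090 and 1930. In both lists vehicle 1, niclosamide 1 and niclosamide 2 were the 3 highest libraries, as they were for the mean of the 10 NF-kB genes, whereas niclosamide 3, the lowest library for the NF-kB genes, was above vehicle 2 and vehicle 3. T and NK cell markers were 278 to 357 with vehicle and 455 to 680 with niclosamide, with all 10 markers above 0 in fold change. Neutrophil markers were 387 to 840 with vehicle and 238 to 355 with niclosamide, with 7 of 8 below 0. Smooth muscle markers were 5740 to 8470 with vehicle and 1940 to 4790 with niclosamide, with 8 of 8 below 0. Markers of B and plasma cells were 969 to 1340 with vehicle and 1810 to 3880 with niclosamide, with 8 of 9 above 0. The median log2 fold change of these 9 markers was only 0.16, and the groups were apart in 2 of them, against 12.3% of all genes. They were apart in 7 of 10 T and NK cell markers, 4 of 8 neutrophil markers and 7 of 8 smooth muscle markers. Among general leukocyte markers they were apart in 1 of 6, and among macrophage markers in 1 of 10. No marker of these 6 lists was at 0 counts in any library, and their part in the values of the NF-kB genes and of the other pathway genes was not tested.

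The 3 genes of the set with the widest range over the libraries were *Tnfaip3*, *Nfkbie* and *Rel*. Of 13260 genes compared, *Rnf149*, *Hsd3b7* and *Selplg* followed *Tnfaip3* most closely over the 6 libraries (Pearson's r = 0.995, 0.990 and 0.988). *Anxa4*, *Slpi* and *Rgs14* were closest to *Nfkbie* (0.999, 0.998 and 0.996), and *Lrch1*, *Spg11* and *Polm* to *Rel* (0.993, 0.977 and 0.974). *Selplg*, the gene of a selectin ligand of leukocytes, had 109, 76.7 and 89.3 CPM with vehicle and 126, 124 and 82.3 with niclosamide, the same order of high and low libraries as *Tnfaip3* within the vehicle group. With 6 libraries, 108 genes had an r above 0.95 with *Tnfaip3*, 178 with *Nfkbie* and 11 with *Rel*, so these names are examples from many.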

How the data were processed

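RNA of lesions was sequenced in 6 libraries with a stranded kit, 1 of them pooled from 4 mice. The authors deposited raw read counts for each gene symbol; per the file headers they counted exon reads by strand with featureCounts 1.4.6-p4 on STAR alignments and the GRCm38.p3 annotation, and the same deposited files give another quantity, each gene's exon length. The submitters' processing notes also name STAR 2.4.2a, Trimmomatic 0.33 and edgeR 3.12.0. Here edgeR 4.0.16 (filterByExpr, minimum count 10, minimum total 15; TMM; robust quasi-likelihood fit, group as the only term), limma 3.58.1 and DESeq2 1.42.0 were run in R 4.3.3. SE was taken from each estimate and its F statistic (the estimate's size divided by the root of F), and log2 CPM used a prior count of 2. TPM was computed from counts and lengths. *Otulin* was matched from its older symbol through the RefSeq table. The 10 genes and the gene lists were chosen with earlier results of these data known. Named pathway genes are the 3 per list with the smallest edgeR p, a rule that also took the 3 genes most like each of the 3 most variable members. The ratios and the TPM scale were added after the values were seen. Alternatives were RLE and upper quartile scaling, no filter or a stricter one, no robust dispersion, limma-voom, DESeq2, a replicate block, an adjusted p under 0.10 and each library left out. In counts drawn to mimic niclosamide against vehicle (17069 genes in the fit), edgeR recovered 0 of 50 genes changed 1.5-fold, 8 of 50 changed 2-fold, 35 of 50 changed 3-fold and 41 of 50 changed 4-fold. It also called 10 genes that had not been changed. The changed genes were drawn from those with a mean above 10 CPM. P-values measure the spread between these libraries, and 3 counts, the limit that a count of 0 allows, are 0.0862 to 0.108 CPM (counting error only).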

Additional observations from a re-analysis of the deposited data

How the results depend on the processing

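None of the 10 genes was called under any of the 14 alternatives, and 128 of 140 alternative fold changes kept their direction. *Nfkb2* turned to -0.0042 with upper quartile scaling and -0.00054 with no filter. With each library left out in turn, the log2 fold change ranged from -0.05 to 0.19 for *Nfkb1*, -0.10 to 0.17 for *Nfkb2*, -0.29 to 0.03 for *Rela*, -0.03 to 0.33 for *Relb*, -0.09 to 0.28 for *Rel*, -0.23 to 0.03 for *Nfkbia*, 0.09 to 0.36 for *Nfkbib*, 0.16 to 0.46 for *Nfkbie*, 0.19 to 0.61 for *Tnfaip3* and -0.16 to -0.01 for *Ikbkb*. On the TPM scale, chosen after seeing the data, *Nfkb1*, *Nfkb2*, *Relb* and *Rel* turned to -0.10, -0.14, -0.03 and -0.11. Over all genes, 1 passed the threshold with no filter on low counts and 178 with DESeq2. Those 178 include 2 of the listed pathway genes outside the 10. Why the settings differed was not tested. The ratios of 2 NF-kB genes that were apart numbered 13 to 24 with 1 library left out, a count that can only rise with fewer samples and so says nothing of stability. With the replicate number as a block 0 genes were called and *Nfkb1* had a fold change of 0.05; the numbers did not pair the libraries (correlations of same-numbered deviations of -0.0846, -0.0875 and 0.266, and vehicle 1 followed niclosamide 2 best). All 80 alternative mean TPM values moved by less than 1 SD. Leaving out 1 of 3 libraries cannot move a mean by 1 SD, so those values say nothing of stability. In the simulation 2-fold changes mostly did not pass the threshold after adjustment over all genes. A lack of calls in the whole table therefore does not exclude changes of that size. For the 10 NF-kB genes the edgeR intervals were narrower than that. Only the interval of *Tnfaip3*, 0.79 to 2.05 as a fold change, included a 2-fold change in either direction. The next highest upper end was 1.72 for *Nfkbie*, and the lowest lower end was 0.65 for *Rela*. These intervals are per gene and not adjusted for the number of genes.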
